A study of Homo sapiens with 16 samples.

Results

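The regions described here are windows of 10 Mb along the human autosomes, chromosomes 1 to 22, each summarised by the genes that start inside it. A gene entered a window by its lowest start position on GRCh38, it was kept when its mean CPM (counts scaled to library size) over the 16 libraries exceeded 1, and a window was kept when it held at least 5 such genes. Of 294 windows that held any annotated gene, 292 held a gene above the CPM minimum and 285 were kept, with 12954 of the 12971 autosomal genes that passed. The kept windows held 5 to 221 genes with a median of 35. The value of a window in a library was the median, over its genes, of the log2 CPM difference from the mean of the parental libraries given the same treatment, so that 1 number stood for 1 region. In windows with few genes the median can be the value of a single gene, as for BTG3 in the window from 10 to 20 Mb of chromosome 21.

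The libraries came from MDA-MB-231, an established triple-negative breast cancer line called parental 231, and from 231:TKO, the same line after CRISPR/Cas9 disruption of TXNIP, which encodes an arrestin-domain protein that restrains glucose uptake. Untreated cells gave 2 parental 231 and 2 231:TKO libraries. Cells collected 48 h after transfection with a non-targeting siRNA (siNT) or an siRNA against Myc (siMyc) gave 12 libraries, 3 for each population and siRNA (231:TKO+siMyc, for example). 231:TKO cells had been isolated as clones grown from single cells, and the labels do not say which clone gave which library, so 231:TKO libraries can differ from parental 231 by clone as well as by genotype and these cannot be told apart. The untreated libraries were single reads and the siRNA libraries were read pairs. All 231:TKO libraries and the untreated parental pair were counted on Ensembl release 102, and the 6 parental siRNA libraries on release 104. The file headers also place the parental and the 231:TKO siRNA libraries in separate sequencing sets, so that in every siNT and siMyc comparison population, release and set cannot be told apart.

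Neighbouring genes on a chromosome usually have separate promoters and are regulated separately, so a change in 1 transcription factor moves genes scattered over all chromosomes. Expression of a whole stretch of neighbours can move together where the number of copies of that stretch differs between cells or where a large chromatin domain changes state, and aneuploid cancer lines and clones drawn from them are known for such regional differences. DNA copy number and chromatin were not measured in these files, and RNA counts alone do not tell these apart.

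Promoters of the gene with the highest mean CPM in each of 5 windows are printed to show what kind of gene sat in the regions that carry the results. They run from 250 bases before to 50 bases after the gene start, 5′ to 3′ along the gene, as RefSeq gives them on GRCh38.p14. ATP5F1A, a subunit of mitochondrial ATP synthase, lies in the window that was highest in untreated 231:TKO cells (chr18:46104178-46104477, minus strand). HSPA13, an HSP70-family protein, lies in the window that was lowest in all 3 comparisons of the populations (chr21:14383097-14383396, minus strand). HSP90AB1, a cytosolic chaperone (chr6:44245944-44246243, plus strand), and NT5E, the cell surface enzyme that makes adenosine (chr6:85449833-85450132, plus strand), lie on chromosome 6 in windows that moved in opposite directions in the siRNA libraries. TXNIP is the targeted gene (chr1:145996530-145996829, minus strand). Capitals mark the hexamers CACGTG, the canonical Myc E-box, and CACGAG on either strand, a variant E-box of carbohydrate response elements.
ATP5F1A: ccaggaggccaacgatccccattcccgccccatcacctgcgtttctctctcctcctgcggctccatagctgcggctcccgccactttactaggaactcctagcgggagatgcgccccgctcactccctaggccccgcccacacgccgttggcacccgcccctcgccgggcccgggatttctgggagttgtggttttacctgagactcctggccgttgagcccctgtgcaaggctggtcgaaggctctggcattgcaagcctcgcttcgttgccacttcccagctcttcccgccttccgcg
HSPA13: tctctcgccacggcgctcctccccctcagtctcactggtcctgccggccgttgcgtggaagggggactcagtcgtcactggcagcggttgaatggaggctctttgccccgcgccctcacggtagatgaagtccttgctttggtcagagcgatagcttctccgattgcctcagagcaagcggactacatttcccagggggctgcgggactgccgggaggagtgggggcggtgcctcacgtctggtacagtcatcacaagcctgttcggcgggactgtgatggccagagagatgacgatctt
HSP90AB1: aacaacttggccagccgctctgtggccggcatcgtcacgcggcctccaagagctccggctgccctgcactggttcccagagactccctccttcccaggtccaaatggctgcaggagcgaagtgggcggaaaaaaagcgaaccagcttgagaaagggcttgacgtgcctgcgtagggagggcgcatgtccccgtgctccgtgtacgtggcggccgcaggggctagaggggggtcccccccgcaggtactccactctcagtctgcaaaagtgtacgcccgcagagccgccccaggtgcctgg
NT5E: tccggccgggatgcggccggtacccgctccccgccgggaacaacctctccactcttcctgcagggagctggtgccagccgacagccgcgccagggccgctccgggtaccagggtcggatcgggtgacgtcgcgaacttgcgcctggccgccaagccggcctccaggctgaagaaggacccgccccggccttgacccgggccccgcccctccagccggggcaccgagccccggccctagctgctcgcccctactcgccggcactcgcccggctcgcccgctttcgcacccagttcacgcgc
TXNIP: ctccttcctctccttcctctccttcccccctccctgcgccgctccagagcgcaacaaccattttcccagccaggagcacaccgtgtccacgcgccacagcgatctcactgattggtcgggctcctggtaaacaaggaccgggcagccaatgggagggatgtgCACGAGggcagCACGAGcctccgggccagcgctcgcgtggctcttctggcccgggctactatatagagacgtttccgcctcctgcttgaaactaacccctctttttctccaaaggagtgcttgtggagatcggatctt
Only the TXNIP promoter among these 5 held a marked hexamer, with 2 copies of CACGAG. Among all 27305 RefSeq promoters 7.41% held CACGTG and 6.83% held CACGAG on either strand. Promoters were found for 77.2% of the genes in the kept windows, and the hexamers were therefore not compared between windows.

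The libraries held 18953668 to 59799444 counts. TXNIP was at 283 CPM in both untreated parental libraries and at 12.4 and 45.5 CPM in the untreated 231:TKO libraries, and it stood at 302 to 467 CPM in the parental siRNA libraries against 6.54 to 10.2 CPM in the 231:TKO siRNA libraries. MYC was at 58.1 to 67.6 CPM in the 6 siMyc libraries and at 121 to 144 CPM in the 6 siNT libraries. Of the markers chosen for the line, VIM, CD44, AXL and CAV1 were at 571 CPM or more in every library, whereas SPARC was at 0.412 to 2.13 CPM. ESR1 and PGR, the hormone receptors that define other breast cancers, were at 0.305 CPM or less. CDH1 reached 9.42 CPM at most, EPCAM 31.3 CPM and GATA3 30.7 CPM, and KRT18, listed as low, was at 191 to 703 CPM. The parental 231+siNT replicate 1 and parental 231+siMyc replicate 3 libraries stood apart from the other 4 parental siRNA libraries: their window deviations from their group means correlated with each other across the 285 windows (r = 0.83) and inversely with those of the other libraries of the other siRNA (r = -0.56 to -0.78), and counts of called windows are given without this pair as well.

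Window values lay close to 0 in the parental libraries and spread widely in all 8 231:TKO libraries. Their SD over the 285 windows was 0.011 in the untreated parental pair, 0.035 to 0.070 in the parental siRNA libraries and 0.218 to 0.255 in the 231:TKO libraries. Parental libraries are measured from their own group mean and 231:TKO libraries from the other population, so part of this gap follows from how the value is built. In the untreated 231:TKO libraries 47 and 45 windows were at 0.25 or above and 13 and 15 at -0.25 or below. In the siRNA 231:TKO libraries 25 to 58 were at 0.25 or above and 26 to 46 at -0.25 or below. Among all parental libraries 1 window in 1 library, parental 231+siMyc replicate 3, was that far from 0.

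**Figure D1:**
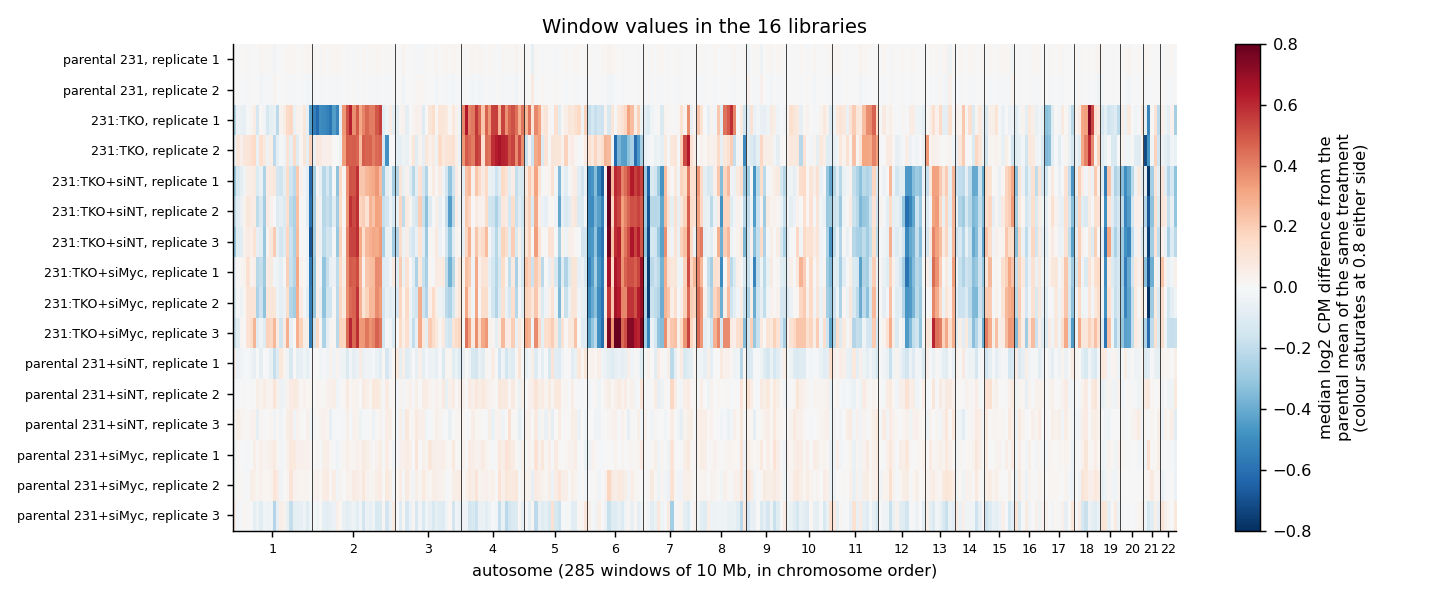
Window value (colour, log2) of 285 autosomal windows of 10 Mb in chromosome order (x axis) in the 16 libraries (rows). Blocks of one colour that run across many neighbouring windows appear in the 231:TKO rows, on chromosomes 2 and 4 in the untreated rows and on chromosomes 2 and 6 in the siRNA rows, and the parental rows are pale throughout.

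In the 231:TKO libraries neighbouring windows had similar values, with a Pearson r over 259 pairs of adjacent windows of 0.75 for the untreated 231:TKO mean, 0.53 for 231:TKO+siNT and 0.57 for 231:TKO+siMyc, and of 0.02 in an untreated parental library. The share of the variance of gene shifts that lay between windows (the intraclass correlation, over 12954 genes) was 0.0671, 0.0862 and 0.0829 in these 3 means and 0.000174 in the untreated parental library. In the parental siRNA libraries this share was higher, at 0.0124 to 0.0398, and adjacent windows correlated at 0.011 to 0.195. Each parental library is measured from its own group mean. Knockdown of Myc, measured from siNT cells of the same population, left a weaker regional pattern: the shares were 0.0121 in 231:TKO and 0.00922 in parental 231, and adjacent windows correlated at 0.18 and 0.14. These are descriptions, since genes of a window share a library and its base composition.

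**Figure D2:**
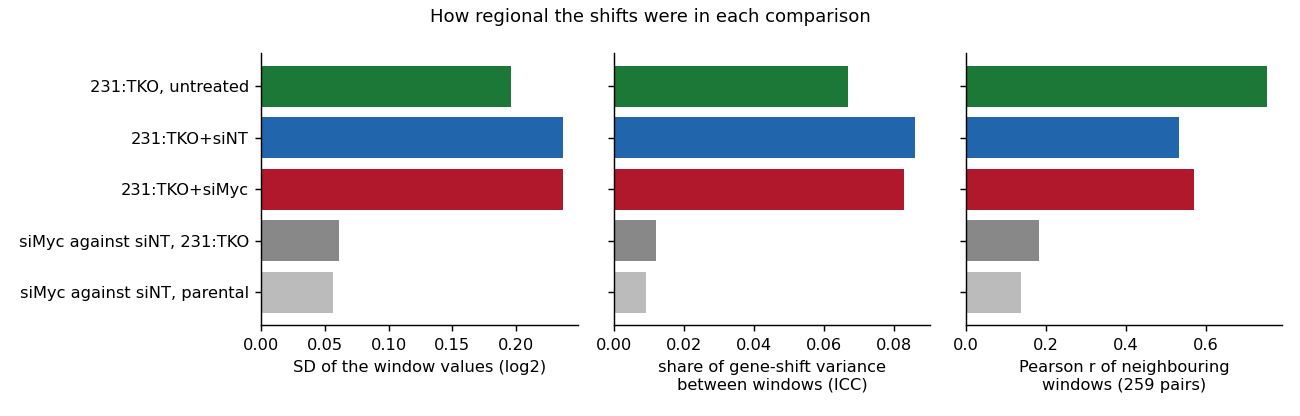
SD over 285 windows (left, log2), share of the gene-shift variance between windows (middle) and Pearson r of adjacent windows (right) for 5 mean shifts. The 3 comparisons of 231:TKO with parental 231 (top bars) have an SD of 0.196 to 0.237, against 0.0560 and 0.0612 for the comparisons of siMyc with siNT.

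Untreated 231:TKO cells were compared with untreated parental 231 cells to ask which regions differ between the populations without transfection. A window was called when its mean shift was at least 0.25 log2 in size and its Benjamini-Hochberg adjusted p from limma, over all windows, was at most 0.05. By this rule 40 of 285 windows (14%) were called, of which 37 were higher (13%) and 3 lower (1.05%) in 231:TKO, and 44 passed the p alone. With either parental library left out no window was called by limma (43 and 44 had an unadjusted p under 0.05), the lone parental library then being assumed to vary as the 231:TKO pair does. With either 231:TKO library left out 60 were called. Averaging genes in place of the median gave 15 higher and 19 lower windows, and only 16 of the 40 windows kept their call in the same direction.

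Most of the windows called higher lay in long runs. On chromosome 2 the 12 windows from 90 to 210 Mb were called higher without a gap, with shifts of 0.28 to 0.55 (median 0.45), and 159 of their 397 genes were called higher by edgeR against 6 lower, where 5.44% of all genes tested were called higher and 4.18% lower. Among kept genes in windows not called these shares were 4.89% and 5.14%. CASP8, the initiator caspase of death receptors, lies in the last window of that run. Chromosome 4 moved along its whole length. All of its 19 windows were above 0 in both 231:TKO libraries, at 0.22 to 0.64 in replicate 1 and 0.12 to 0.66 in replicate 2, with 15 called higher and a median shift of 0.47, whereas the parental libraries ran from -0.03 to 0.03. Its runs spanned 0 to 60 Mb, 70 to 110 Mb and 140 to 170 Mb, and the windows from 110 to 120 Mb and 130 to 140 Mb, not called, were high in both libraries but unequal between them (0.27 and 0.66, then 0.36 and 0.60). Shorter runs were called higher on chromosome 11 from 90 to 130 Mb (4 windows, median shift 0.34) and on chromosome 18 from 20 to 60 Mb (4 windows, median shift 0.41).

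The highest window was chromosome 18 from 40 to 50 Mb, at 0.73 and 0.60 in the 2 231:TKO libraries and 0.01 and -0.01 in the parental ones, with a shift of 0.66 ± 0.05 (SE; adjusted p = 0.00614). Its 3 genes of highest CPM rose with it: ATP5F1A by 0.81 ± 0.06 log2, the autophagy gene EPG5 by 1.12 ± 0.19 and SMAD2, a TGF-beta signal transducer, by 0.63 ± 0.06 (edgeR, adjusted p of 0.0051, 0.037 and 0.011). SMAD4, the partner of SMAD2, lies in the next window and rose by 0.62 ± 0.07 (adjusted p = 0.013). The 4 next highest windows were all on chromosome 4. Between 100 and 110 Mb the values were 0.55 and 0.63, a shift of 0.59 ± 0.04, and UBE2D3, RPL34 and the kinetochore motor gene CENPE rose by 0.52, 0.61 and 0.62 log2. Between 120 and 130 Mb, with values of 0.54 and 0.62, the cell cycle genes CCNA2 and MAD2L1 rose by 0.62 and 0.61 log2, whereas ANXA5, the most abundant gene there, had a log2 change of 0.05 (adjusted p = 0.66). Between 90 and 100 Mb the values were 0.55 and 0.58, and H2AZ1, a histone variant, and ADH5 rose by 0.58 and 0.68 log2 while PDLIM5 had a log2 change of -0.09 that did not pass. In the window from 10 to 20 Mb, at 0.64 and 0.49, WDR1, an actin disassembly factor, rose by 0.67 log2.

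Windows called lower were few. Chromosome 21 from 10 to 20 Mb stood at -0.53 and -0.48 in 231:TKO, a shift of -0.51 ± 0.03 (adjusted p = 0.0053), with HSPA13 and the antiproliferative gene BTG3 lower by 0.54 and 0.64 log2. This window rests on 7 genes. Chromosome 17 from 0 to 10 Mb, with 152 genes, stood at -0.33 and -0.35 (shift -0.34 ± 0.02), and from 10 to 20 Mb, with 72 genes, at -0.30 and -0.33. The 3 genes of highest CPM in the first of these, PFN1, YWHAE and PRPF8, had log2 changes of -0.06, -0.09 and -0.19 that did not pass the test (edgeR).

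The 2 untreated 231:TKO libraries did not share all of their regional pattern. Their window values correlated at r = 0.60, and 36 of 285 windows (12.6%) differed between them by 0.25 or more, 18 in each direction, against none between the untreated parental libraries. Of these 36 windows 26 lay in 5 runs of neighbours. On chromosome 2 from 0 to 80 Mb replicate 1 was at -0.45 to -0.62 in all 8 windows, which hold 328 genes, and replicate 2 at -0.05 to 0.09. On chromosome 6 from 80 to 160 Mb replicate 2 was at -0.26 to -0.62 and replicate 1 at -0.02 to 0.32. On chromosome 8 from 80 to 120 Mb replicate 1 was at 0.39 to 0.59 and replicate 2 at -0.18 to 0.20. The other 2 runs covered 3 windows each, on chromosome 5 from 0 to 30 Mb and on chromosome 6 from 20 to 50 Mb. None of these regions could be called as a population difference, and 39 windows were above 0.25 in both libraries and 3 below -0.25 in both. TXNIP also differed between them, at 12.4 CPM in replicate 1 and 45.5 CPM in replicate 2.

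**Figure D3:**
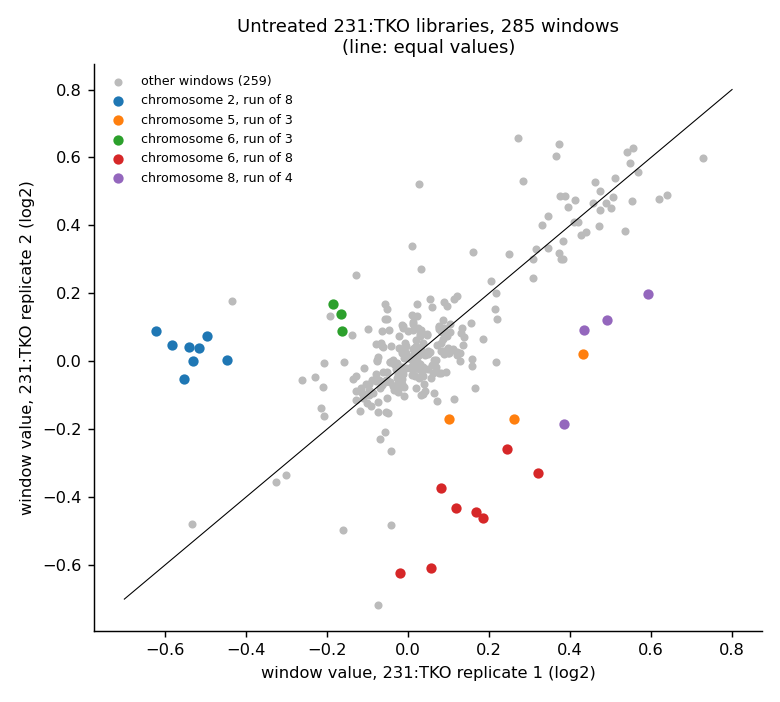
Window value (log2) in untreated 231:TKO replicate 1 (x axis) and replicate 2 (y axis); each point is 1 of 285 windows, coloured where 3 or more neighbours differed by 0.25 or more in the same direction. The chromosome 2 run sits at -0.45 to -0.62 in replicate 1 and near 0 in replicate 2, and the longer chromosome 6 run is low in replicate 2.

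The same question asked in siNT cultures gave a different map. Of 285 windows 67 (23.5%) were called between 231:TKO+siNT and parental 231+siNT, 25 higher (8.77%) and 42 lower (14.7%), and 168 passed the p alone. The split by direction depended on the scaling, with 53 higher and 23 lower under plain CPM, 42 and 24 under DESeq2 size factors 34 and 35 with each library centred on its median window, and 18 and 53 with the GC content of the genes regressed out. Without the pair of parental libraries that stood apart 71 were called, and with genes of equal length in both Ensembl releases 68.

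The longest runs lay on chromosome 6. The 5 windows from 0 to 50 Mb, which hold 392 genes, were called lower with shifts of -0.34 to -0.59 (median -0.49), and 240 of those genes were called lower by edgeR against 28 higher, where 20.7% of all genes tested were called lower and 16.1% higher. Among kept genes in windows not called these shares were 25.3% and 22.1%. From 80 to 170 Mb all 9 windows were called higher, with shifts of 0.35 to 0.59 (median 0.54) over 260 genes, 178 of them called higher and 10 lower. In the 231:TKO+siNT libraries the window from 40 to 50 Mb was at -0.66, -0.54 and -0.59 and that from 80 to 90 Mb at 0.60, 0.58 and 0.59, with the 3 parental libraries between -0.07 and 0.04 in both. In the former HSP90AB1, RPL7L1 and the adhesion receptor gene ADGRF5 had log2 changes of -0.30, -0.70 and -1.60 (edgeR, adjusted p of 0.016, 7.66e-05 and 0.000104). In the latter NT5E rose by 0.82 log2, the RNA-binding protein gene SYNCRIP by 1.89 and the hexosamine pathway gene PGM3 by 0.63 (edgeR, adjusted p of 6.29e-05, 5.77e-08 and 0.000505). The untreated 231:TKO libraries disagreed with each other in these windows, at -0.17 and 0.14 from 40 to 50 Mb and at -0.02 and -0.62 from 80 to 90 Mb.

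The highest value of any window, chromosome 6 from 60 to 70 Mb, rested on 5 genes, the minimum. It stood at 1.02, 1.23 and 0.77 in the 231:TKO+siNT libraries, a shift of 1.01 ± 0.09 (adjusted p = 7.48e-06). Its shift was 0.31 with genes down to a mean of 0.1 CPM admitted, 0.61 on summed counts and 2.20 with the mean over genes. PHF3, its most abundant gene, had a log2 change of 0.18 that did not pass (adjusted p = 0.51), and the unnamed gene ENSG00000227706 was at 57.2 ± 0.617 CPM (SD, n = 3) in 231:TKO+siNT and 3.43 ± 0.146 CPM (SD, n = 3) in parental 231+siNT. The other 3 windows with exactly 5 genes had siNT shifts of -0.04, -0.14 and -0.12, and the 1 window with 4 genes, which was left out, had a mean value of 0.38 in the 231:TKO+siNT libraries.

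Outside chromosome 6 the siNT runs were on chromosome 2, from 100 to 140 Mb (4 windows, median shift 0.54) and from 170 to 210 Mb (4 windows, 0.29), on chromosome 12 from 80 to 110 Mb (3 windows, -0.45) and on chromosome 20 from 0 to 30 Mb (3 windows, -0.46). Chromosome 2 from 130 to 140 Mb stood at 0.59 in all 3 231:TKO+siNT libraries and at 0.49 and 0.47 in the untreated ones, and PLEKHB2 and FAM168B rose by 0.79 and 0.71 log2 there. The lowest windows were chromosome 21 from 10 to 20 Mb, at -0.78, -0.68 and -0.75, and chromosome 7 from 10 to 20 Mb, at -0.65, -0.69 and -0.72. In the latter the mitochondrial gene NDUFA4 and the xenobiotic receptor gene AHR fell by 0.64 and 0.71 log2. Chromosome 1 from 240 to 250 Mb had a shift of -0.62 ± 0.04, with the fumarase gene FH lower by 0.36 log2 and HNRNPU, its most abundant gene, at a log2 change of 0.05 that did not pass. Chromosome 19 from 10 to 20 Mb, the window with the most genes at 221, had a shift of -0.55 ± 0.04, and CALR, an endoplasmic reticulum chaperone gene, fell by 0.40 log2. Window GC content moved with the values, at r = -0.12 to -0.29 over 285 windows in the 3 libraries, and with GC regressed out 53 of the 67 windows were still among those called.

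**Figure D4:**
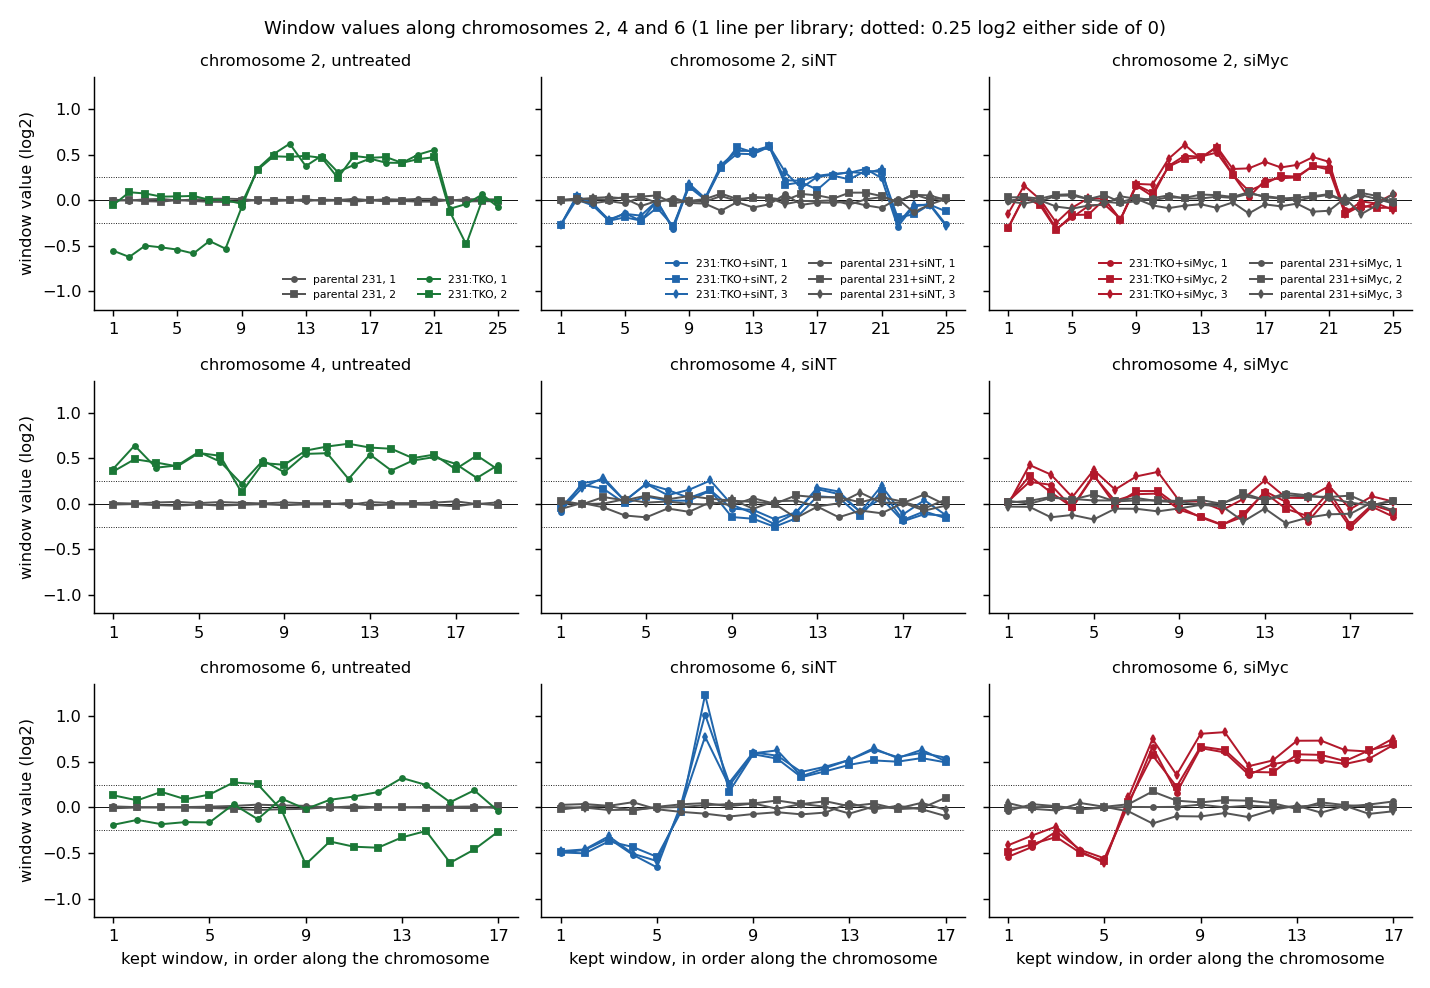
Window value (log2, y axis) of the kept windows in order along chromosomes 2, 4 and 6 (rows) in untreated, siNT and siMyc libraries (columns); each line is 1 library, grey for parental 231, and dotted lines mark 0.25 either side of 0. Chromosome 2 has a raised block in all 3 columns, chromosome 4 is raised in the untreated column, and chromosome 6 steps from low to high in the siRNA columns.

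In siMyc cultures 72 windows (25.3%) were called between 231:TKO+siMyc and parental 231+siMyc, 39 higher (13.7%) and 33 lower (11.6%), or 59 higher and 18 lower under plain CPM and 24 and 47 with GC content regressed out. Without the pair of parental libraries that stood apart 66 were called. Chromosome 6 was again called lower from 0 to 50 Mb (5 windows, median shift -0.48) and higher from 60 to 170 Mb (11 windows, median 0.60). The highest window was chromosome 6 from 80 to 90 Mb, at 0.65, 0.67 and 0.81, a shift of 0.71 ± 0.06 (adjusted p = 0.000145), followed by 160 to 170 Mb with 0.70 ± 0.04, where the junction gene AFDN and the chromatin remodelling gene PHF10 rose by 1.27 and 0.89 log2. Between 90 and 100 Mb the shift was 0.68 ± 0.07, and MAP3K7, a stress kinase gene, rose by 0.56 log2. Between 120 and 130 Mb it was 0.61 ± 0.06, with the phosphatase gene PTPRK higher by 1.28 log2. Further runs were on chromosome 2 from 100 to 150 Mb and 160 to 210 Mb, on chromosome 13 from 30 to 60 Mb (3 windows higher, median 0.36), on chromosome 12 from 80 to 110 Mb and on chromosome 20 from 0 to 30 Mb. The lowest windows were the same 5 as in siNT cultures, led by chromosome 21 from 10 to 20 Mb at -0.72 ± 0.08 and chromosome 7 from 10 to 20 Mb at -0.67 ± 0.07.

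The siNT and siMyc maps had most of their calls in common, and the untreated map stood apart from both. Of the windows called in siNT and in siMyc 56 were called in both in the same direction, 83.6% of the former and 77.8% of the latter, and none in opposite directions, with r = 0.97 across windows. The untreated and siNT lists had 10 windows in the same direction, 25% of the former and 14.9% of the latter, and 1 in opposite directions (r = 0.28). The siNT and siMyc comparisons have separate parental libraries but the same sequencing sets and annotation releases. Over the 8 231:TKO libraries, those treated with siRNA correlated with each other at 0.90 to 0.98, with untreated replicate 1 at 0.34 to 0.43 and with untreated replicate 2 at 0.05 to 0.14. Called in the same direction in all 3 comparisons were 10 windows, namely 8 on chromosome 2 (100 to 140 Mb and 170 to 210 Mb), chromosome 5 from 30 to 40 Mb (0.34, 0.30 and 0.28) and chromosome 21 from 10 to 20 Mb (-0.51, -0.74 and -0.72).

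**Figure D5:**
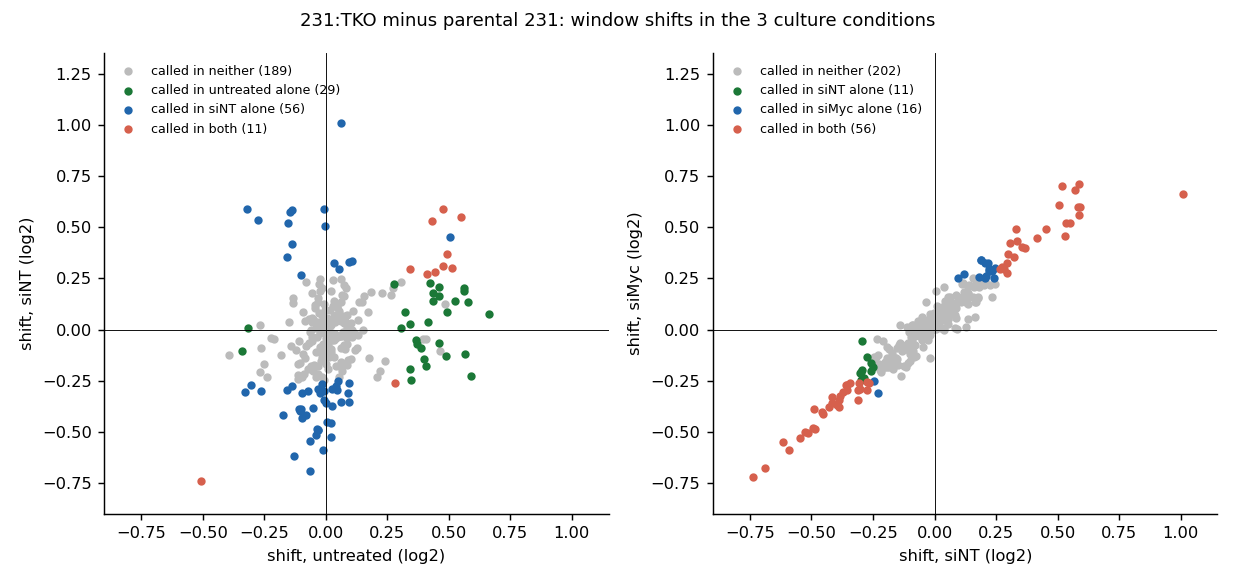
Shift of each of 285 windows (231:TKO minus parental 231, log2) in untreated against siNT cultures (left) and in siNT against siMyc cultures (right), coloured by the comparison in which it was called. On the right the points follow the diagonal (r = 0.97), and on the left 10 windows were called in both comparisons in the same direction and 1 in opposite directions.

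The cultures, transfection, read layout, sequencing set and, for the parental cells, annotation release changed together between the untreated and siNT libraries. These cannot be told apart, and the clone behind each 231:TKO library is not stated. The difference between the untreated and siNT shifts was tested directly in 1 fit of the 10 libraries. It passed in 81 windows (28.4%), 14 (4.91%) with a higher and 67 (23.5%) with a lower shift in siNT cultures, or 42 and 31 under plain CPM, 24 and 47 under DESeq2 size factors and 25 and 49 with libraries centred. Chromosome 4 held 17 of the 67. There the 12 windows from 70 to 190 Mb had a median shift of 0.47 untreated and -0.10 with siNT. Chromosome 6 ran the other way from 130 to 170 Mb, with medians of -0.15 untreated and 0.56 with siNT over 4 windows, and chromosome 11 from 60 to 140 Mb went from 0.26 to -0.22 over 8 windows. Both populations moved between the sets: on chromosome 4 the median window was 0.37 higher in the siNT than in the untreated parental libraries and 0.26 lower in 231:TKO, and on chromosome 6 it was 0.55 lower in parental cells and 0.05 lower in 231:TKO. Window GC content moved with these set differences as well (r = 0.51 in parental 231 and 0.56 in 231:TKO over 285 windows), and with GC regressed out 85 windows passed.

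No window had a knockout shift that differed between siMyc and siNT cultures (limma, 11 windows with an unadjusted p under 0.05, and none called by edgeR or DESeq2 on counts summed over the genes of each window). Myc knockdown within a population also called none of 285 windows with limma, in 231:TKO (48 with an unadjusted p under 0.05) or in parental 231 (10). With summed counts edgeR and DESeq2 each called 7 windows in 231:TKO, and 1 and 3 in parental 231. The windows of the siRNA target and of the deleted gene were not called by their medians in the 3 comparisons of the populations. Chromosome 8 from 120 to 130 Mb, which holds MYC among 33 genes, had shifts of -0.01 ± 0.02, 0.06 ± 0.03 and 0.07 ± 0.05 in untreated, siNT and siMyc cultures, and the signs of the last 2 turned with several settings. Chromosome 1 from 140 to 150 Mb, which holds TXNIP among 46 genes, had -0.14 ± 0.06, -0.08 ± 0.04 and -0.01 ± 0.05 and also changed sign with several settings in the siRNA cultures. On summed counts, to which TXNIP itself contributes, that window had -0.63 untreated (adjusted p = 0.052 with edgeR and 0.000115 with DESeq2), -0.66 with siNT and -0.74 with siMyc, and edgeR and DESeq2 both called the last 2. TXNIP itself had a log2 change of -3.29 ± 0.65 untreated (edgeR, adjusted p = 0.059) and of -5.42 ± 0.11 with siNT (adjusted p = 2.74e-10).

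Genes inside the called windows are described here without a test, since the call itself places most of a window's genes on 1 side of 0. In untreated cultures 38.6% of the 1186 genes in windows called higher were called higher by edgeR, against 4.89% of the 11537 genes in windows not called. With siNT 58.8% of 779 genes in windows called higher were themselves called higher, and 53.2% of 1992 genes in windows called lower were called lower, against 22.1% and 25.3% in the windows not called. These gene calls come from the same libraries as the window calls. Where both 5-Mb parts of a called window held at least 5 genes, both parts passed 0.25 in 25 of 32 windows untreated, 34 of 50 with siNT and 38 of 57 with siMyc, among windows chosen for a median past 0.25 over the same genes. Split by expression level instead, both groups of genes passed 0.25 in 27 of the 37 windows called higher untreated, in 20 of 25 with siNT and in 23 of 39 with siMyc. The spread of genes around the window median was wide by comparison, with a median interquartile range of 0.43 in windows called higher untreated and of 0.57 with siNT.

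Among 49 known breast cancer suppressors and oncogenes 45 lay in kept windows. Untreated, 7 of the 45 (15.6%) lay in called windows, where 10.9% of all kept genes lay, and in windows called higher CASP8 rose by 0.47 ± 0.08 log2, SMAD4 by 0.62 ± 0.07 and the DNA damage kinase gene ATM by 0.33 ± 0.06. The ubiquitin ligase gene FBXW7 (0.34), the Hippo effector gene YAP1 (0.40) and MAP2K4 (-0.15) lay in called windows without passing. With siNT 5 of 45 (11.1%, against 21.4% of all kept genes) lay in called windows. CASP8 rose by 1.09 ± 0.09 log2, and on chromosome 13 BRCA2 and RB1, in neighbouring windows, rose by 0.65 ± 0.17 and 0.60 ± 0.11, while AKT1 fell by 0.35 ± 0.08 and EGFR, in a window called lower, had a log2 change of 0.15 that did not pass. With siMyc 8 lay in called windows (17.8%, against 21.6%), and 5 of these were called in the direction of their window. ATM and YAP1, which share 1 window called lower (shift -0.25), were higher by 1.05 ± 0.15 and 0.47 ± 0.10 log2. A gene could thus go against its region. Over the 45 genes 7 were called higher and 4 lower untreated, where 5.44% of all genes tested were called higher and 4.18% lower. With siNT 23 were called higher and 4 lower (16.1% and 20.7% of all genes tested), and with siMyc 22 and 5 (18.8% and 21.7%). All genes tested include genes below the CPM minimum, which the 45 passed. Among kept genes in windows not called, 22.1% were called higher and 25.3% lower with siNT, and 23.9% and 27.9% with siMyc. The median log2 changes of the 45 genes were 0.06, 0.34 and 0.32, against 0.01, -0.03 and -0.03 over all kept genes.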

How the data were processed

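RNA-seq of MDA-MB-231 cells was analysed from 1 deposited table of raw counts per library. Per the file headers, the authors aligned reads to GRCh38 and assigned them to exons of Ensembl genes with featureCounts 1.6.3, strand setting 2, with release 102 for 10 libraries and release 104 for the 6 parental siRNA libraries; read pairs were counted in the siRNA libraries and single reads in the untreated ones. The count tables shared 60620 gene IDs, of which 97.4% had the same length in both releases, and 99.966% to 99.985% of the counts fell on them; symbols came from a gene name table. No start position changed window between releases.

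Log2 CPM used TMM factors over all 16 libraries and a prior count of 2 (edgeR 4.0.16, R 4.3.3). Window values were tested with limma 3.58.1 (robust empirical Bayes, no covariate) on the libraries of each comparison, with Benjamini-Hochberg adjustment over 285 windows. Genes whose counts totalled over 5 across a comparison's libraries were tested with edgeR's quasi-likelihood test, adjusted over all genes tested, and a gene's SE is its log2 fold change divided by the root of its F statistic. DESeq2 1.42.0 was an alternative. The labels do not say that libraries came from separate cultures, so p-values measure the spread between these libraries, which may be technical. Library totals of 18953668 to 59799444 counts set the counting precision.

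The windows, gene lists and thresholds were chosen with earlier results of these data known. Windows named are the 5 highest and 5 lowest called in each comparison of the populations, the 5 largest in each tested difference, and those holding TXNIP and MYC. Every run of 3 or more called neighbours is named as well. Genes named in a window are drawn from the 3 with the highest mean CPM, and breast cancer genes from a list. For some windows fewer than 3 are named, so the named genes do not show how all of its most abundant genes moved. Alternatives are given in the closing section. GC content came from GENCODE transcripts for 99.6% of kept genes. The reference genome supplied was GRCh37, so no coordinate was taken from it.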

Additional observations from a re-analysis of the deposited data

Results flagged for a closer look

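The difference between the knockout shift in siNT and in untreated cultures was flagged because it was tested directly and passed in 81 of 285 windows. Its 5 largest windows were chromosome 6 from 60 to 70 Mb (0.95, siNT minus untreated), chromosome 6 from 80 to 90 Mb (0.91), chromosome 4 from 100 to 110 Mb (-0.82), chromosome 6 from 140 to 150 Mb (0.81) and chromosome 6 from 150 to 160 Mb (0.72), with limma adjusted p of 0.0053, 0.0072, 1.41e-05, 0.016 and 0.024. On chromosome 4 the window stood at 0.55 and 0.63 in the untreated 231:TKO libraries and at -0.17, -0.25 and -0.22 in the siNT ones, so that all 5 libraries kept to the side of their set. The 4 chromosome 6 windows include regions in which the 2 untreated 231:TKO libraries differed from each other, for example -0.02 and -0.62 from 80 to 90 Mb. Between 150 and 160 Mb the adjusted p exceeded 0.05 when 1 of 5 libraries was left out (0.050 to 0.060), and between 140 and 150 Mb without parental 231 replicate 1 (0.063). The cultures, transfection, sequencing set and layout and, for the parental cells, annotation release differ together between the sets. Their part in the result cannot be told apart. No group held 4 or more libraries, so none was searched for single outlying libraries.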

How the results depend on the processing

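Direction and side of the threshold were unaltered in 856 of the recomputed values of the 39 window values named, over up to 28 settings each. Of the recomputed values 31 lost their call, 7 gained one and 20 changed sign. Untreated, 40 windows were called, 22 with windows of 20 Mb and 0 to 60 with 1 library left out (0 without either parental library). With siNT the count of 67 became 104 with the mean over genes, 32 with 20-Mb windows and 168 with no minimum size, and 65 to 74 with 1 library left out. With siMyc the count of 72 became 32 with 20-Mb windows and 132 with no minimum size, and 66 to 73 with 1 left out. The difference between siNT and untreated shifts, 81 windows, became 41 with 20-Mb windows and 70 to 101 with 1 left out. Myc knockdown in 231:TKO, with 0 windows called, gave 1 with windows moved by 5 Mb, 7 with edgeR and 7 with DESeq2 on summed counts and 0 to 1 with 1 left out (1 without 231:TKO+siMyc replicate 3), and in parental 231 it gave 1 with edgeR and 3 with DESeq2. Genes called untreated numbered 1919, but 229 at an adjusted p of 0.01, 903 with the replicate block, 2989 in 1 fit of all 16 libraries and 0 to 6996 with 1 left out. The cause was not tested, except that 20-Mb windows are fewer and a lone library leaves less spread to estimate.

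The 20 changes of sign were all in windows that were not called. Chromosome 1 from 140 to 150 Mb had 0.0201 with siNT under plain CPM. With siMyc it had 0.0785 under plain CPM, 0.00596 under DESeq2 size factors, 0.00519 with genes of equal length, 0.0442 with genes above 0.1 CPM and 0.00599 without the pair of parental libraries that stood apart, and -0.0462 to 0.0146 with 1 library left out. Chromosome 8 from 120 to 130 Mb had, with siNT, -0.0112 after length correction, -0.0297 after GC correction and -0.0103 with protein-coding genes. With siMyc it had -0.0866 with genes above 5 CPM, -0.0596 after length correction, -0.0355 after GC correction, -0.0566 with protein-coding genes, -0.0206 with genes above 0.1 CPM and -0.0240 without that pair, and -0.0240 to 0.102 with 1 library left out.

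The replicate block gave 38, 67 and 62 windows untreated, with siNT and with siMyc, and 79 for the difference. Replicate numbers did not pair the libraries, whose same-numbered deviations correlated at -0.52 to -0.05 within the comparisons of the populations. The fit with no filter on low counts could not be fitted, since over 10% of windows then had no spread.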

Other observations

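AGR2, a secretory pathway gene in the window from 10 to 20 Mb of chromosome 7, was at 230 ± 46.1 CPM (SD, n = 3) in parental 231+siNT and 295 ± 46.7 CPM (SD, n = 3) in parental 231+siMyc, and it had no count in any 231:TKO library. In the untreated parental libraries it was at 0.477 ± 0.0994 CPM (SD, n = 2), so that parental levels differed between the untreated and the siRNA libraries. The cultures, transfection, read layout, annotation release and sequencing set differ together between these and cannot be told apart. The unnamed gene ENSG00000227706 on chromosome 6 stood at 69.6 ± 0.818 CPM (SD, n = 2) in untreated parental 231 and at 3.43 and 3.23 CPM on average in the siNT and siMyc parental libraries, against 57.2 to 66.6 CPM on average in the 3 231:TKO groups.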
